A study of Mus musculus with 30 samples.

Results

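B cells without Irf4 were followed through their first day of activation. The 6 arrays described here, of 30 in the series, were chosen by their titles alone. They hold 3 samples of unstimulated cells (day 0) and 3 samples after 1 day in culture, all at 0 ng/mL doxycycline (DOX). The starting cells were mature B cells at rest, taken from the spleen. The mice were Irf4-/-, carried an inducible Irf4 transgene in both groups, and had a C57BL/6, B1-8i background (B1-8i is a knocked-in antibody heavy chain). Stimulated cells received CD40 ligand (CD40L) with interleukins (IL) 2, 4 and 5, and day 0 cells received nothing. The comparison therefore sets culture with this mixture against unstimulated cells, and the parts of CD40L, of each interleukin and of culture itself cannot be told apart. Each array came from the cells of 1 mouse. In every group 2 replicates were handled in parallel and 1 at another time, and the labels do not say which. For comparison, Irf4+/+ cells of the same background and culture gave 3 arrays at day 0 and 3 at day 1. Irf4-/- cells with 100 ng/mL DOX at day 1 and Irf4-/- cells without DOX at day 3, with 3 arrays each, were used at the end. Messenger RNA was measured on Affymetrix mouse arrays of 45101 probe sets, and each level below is the log2 of the deposited intensity plus 16, for the probe set with the highest mean among those of a gene.

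CD40 on a B cell signals through TRAF adaptors to NF-kB, IL-4 signals through STAT6, and IL-2 and IL-5 signal through STAT5. Together they take a resting cell out of quiescence: messages of the recirculating state give way to messages for growth, DNA synthesis and division. Irf4 is a transcription factor of the interferon regulatory factor (IRF) family that NF-kB induces in activated B cells, and it is needed for plasma cell differentiation and class switching. The IRF family takes its name from genes that answer interferons. Type I interferons act on genes through the interferon-stimulated response element, and interferon gamma acts through the gamma-activated site.

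The labels were first set against the arrays. All 6 arrays carried a B cell profile. Of 7 measured B cell markers 1 rose and 4 fell (2 and 4 without the array doubted below), and their summed intensity was 57310 to 61739 at day 0 and 42332 to 46814 at day 1, against 61404 to 63865 and 41025 to 43250 in the wild type. Irf4 itself has a probe set that follows DOX. At day 0 it read 8.21, 7.87 and 7.90 in replicates 1 to 3, near the wild-type range of 7.96 to 8.07. At day 1 without DOX it read 7.84, 10.77 and 7.80. Replicate 2 therefore stood apart from the other 2 and went against its label, near the 11.17 and 10.89 of 2 of the 3 arrays labelled 16 ng/mL DOX; the remaining array of that group read 7.69. With 100 ng/mL it read 12.68 to 13.10. The comparisons were therefore repeated without this library, labelled day 1, zero DOX, replicate 2 and called the doubted array below. Of 36 gene lists 27 had the same first-day counts without it, and for the others both counts are given. The first-day difference that moved most among the genes named here was that of Gfi1, from -2.91 to -3.23. The other Irf4 probe set has the higher mean, and whether it reports message of the endogenous gene was not tested. It read 12.75, 12.78 and 12.41 at day 0 and 12.20, 11.96 and 11.99 at day 1. That difference was -0.60 (SE 0.13, adjusted p 0.00023) but 0.11 (adjusted p 0.78) when the 2 probe sets were averaged. In the wild type the mean of this set went from 13.17 to 11.72, a difference of -1.45. The sources do not place the set relative to the deleted part, so it checks nothing about the deletion. Among the day 0 arrays, replicate 2 had a difference of 0.254 between the 3' and 5' Gapdh probe sets, against -0.063 to -0.0047 on the other 5 of the 6 arrays, and replicate 3 had the lowest correlation with the other 2 (0.978 and 0.981). Replicates 1 and 2 of the Irf4-/- cells came from males and replicate 3 from a female, by the sex-linked genes, while the wild-type mice were all female.

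**Figure D1:**
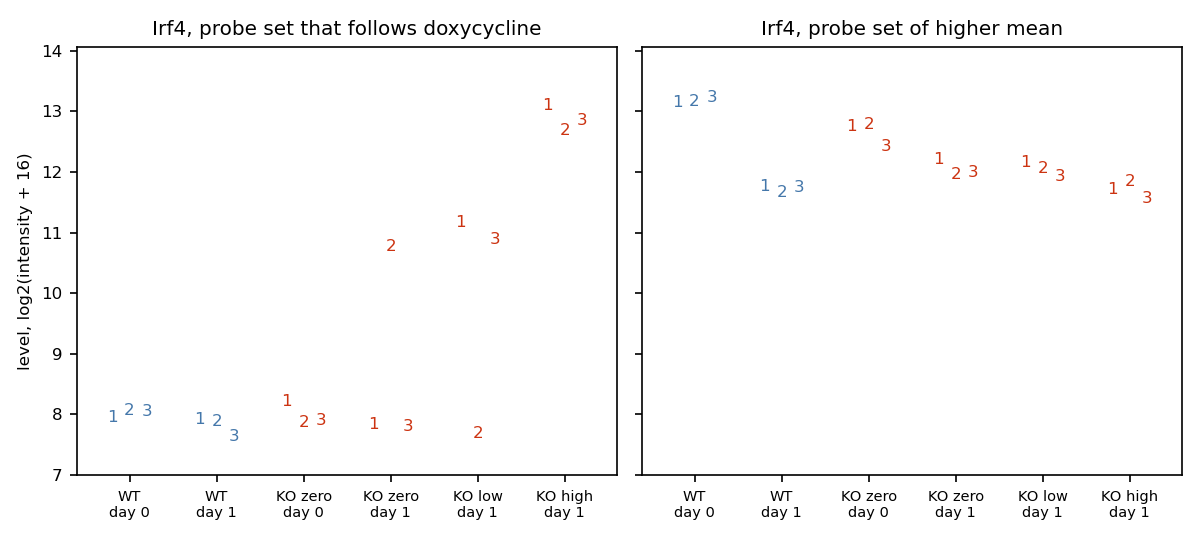
Levels of both Irf4 probe sets, as log2(intensity + 16), on each array of 6 groups; each digit is 1 array and gives its replicate number (WT, Irf4+/+; KO, Irf4-/-; zero, low and high are 0, 16 and 100 ng/mL DOX). In the left panel the day 1, zero DOX array 2 lies at 10.77 and the low DOX array 2 at 7.69, each at the level of the other group.

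Most genes changed during the first day. Of 12183 genes tested with limma, 8508 (69.8%) had an adjusted p under 0.05, with 4844 (39.8%) higher and 3664 (30.1%) lower at day 1. At least 2-fold changes were found for 2235 genes (18.3%), of which 1341 (11%) rose and 894 (7.34%) fell. The 3 day 1 levels lay wholly above or wholly below the 3 day 0 levels for 8693 genes (71.4%). Without the doubted array 8092 genes were called, 4595 higher and 3497 lower, and 2196 changed at least 2-fold. Because most genes were called, a call alone says little about a gene, and the sizes below carry the description. The counts of list members that rose or fell stand beside the 39.8% and 30.1% of all genes.

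The chemokine gene Ccl22, whose product draws T cells, had the largest rise at 43.2-fold. It read 8.36, 9.75 and 7.67 at day 0 and 14.08, 14.04 and 13.95 at day 1, a difference of 5.43 (SE 0.33, adjusted p 1.9e-13). The 3 stimulated arrays were close together and the unstimulated ones were spread over 2.08 log2 units. Of the 12 largest rises 7 were in genes of the interferon lists treated below: Iigp1 (33.4-fold), Usp18 (29.3-fold), Ifit1 (24.0-fold), Parp12 (17.8-fold), Cxcl10 (14.2-fold), Oasl2 (13.9-fold) and Mx1 (13.8-fold). Socs1, which encodes an inhibitor of Janus kinases, rose 21.7-fold, from 7.24, 7.45 and 7.39 to 11.84, 11.70 and 11.87 (difference 4.44, SE 0.10, adjusted p 8.6e-21). Within each day the 3 arrays lay within 0.21 log2 units, and the days were far apart. The other 3 of the 12 largest were the mitotic kinase gene Melk (15-fold), the death receptor gene Fas (13.8-fold) and Idi1 of sterol synthesis (13.5-fold). Fas read 6.52, 6.51 and 6.70 before and 10.46, 10.41 and 10.21 after stimulation.

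The largest fall was that of Fos, an immediate early gene, at 78.8-fold. It read 13.55, 13.62 and 13.89 at day 0 and 7.32, 7.44 and 7.41 at day 1, a difference of -6.30 (SE 0.23, adjusted p 2.1e-17). All 3 unstimulated arrays were high and all 3 stimulated arrays were low. Irs2, an adaptor of insulin and IL-4 receptors, read 13.52, 13.50 and 13.40 and then 7.64, 7.60 and 7.53 (59.1-fold lower). The orphan nuclear receptor gene Nr4a1 fell from 14.07, 14.10 and 14.13 to 8.46, 8.40 and 8.64 (48.5-fold). The remaining 9 were Plk2 (53.1-fold), Klf4 (51.4-fold), Dusp1 (30.7-fold), Rhob (30.5-fold), Fosb (30.1-fold), Hspa1a (27.8-fold), Rgs2 (27.0-fold), Cxcr4 (25.1-fold) and Lncpint (22.5-fold). Hspa1a, a heat shock gene, varied most before stimulation, with 11.15, 12.46 and 9.69 against 6.30, 6.33 and 6.28 after it. Its difference of -4.80 was -4.12 without day 0 replicate 2 and -5.50 without day 0 replicate 3.

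**Figure D2:**
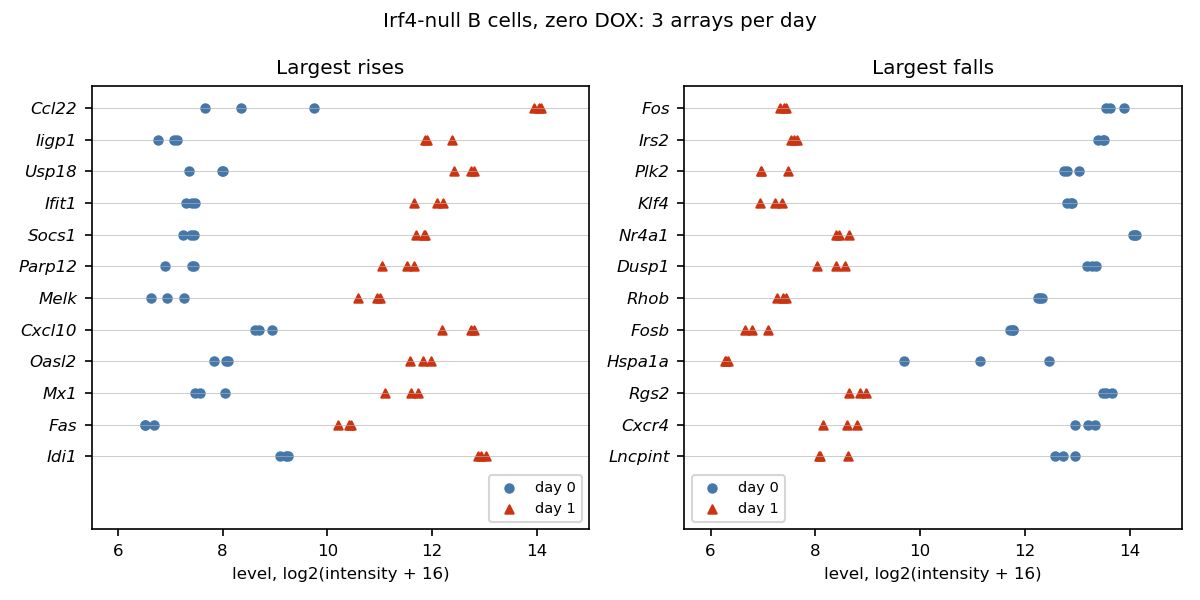
Level, as log2(intensity + 16), of the 12 genes with the largest rise (left) and the 12 with the largest fall (right) on the 3 arrays of each day. In all 24 genes the day 0 points (circles) and day 1 points (triangles) do not overlap, which the choice of genes requires.

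Setting the first day of Irf4-/- cells against that of Irf4+/+ cells asks which part of the response differs with the genotype. Replicates 1 and 2 of the Irf4-/- cells were male and all wild-type mice were female, so sex and genotype cannot be fully told apart. Wild-type cells had 9932 genes (81.5%) called between day 0 and day 1, 4133 higher (33.9%) and 5799 lower (47.6%). A change of at least 2-fold was found there for 2488 genes (20.4%), of which 1341 (11%) rose and 1147 (9.41%) fell. Of the genes that rose at least 2-fold, 1059 did so in both genotypes, which is 79% of either list. Of those that fell, 709 were shared, 79.3% of the Irf4-/- list and 61.8% of the wild-type list. Ighg3 and Nid1 rose at least 2-fold in Irf4-/- cells and fell at least 2-fold in the wild type, and no gene did the reverse. The difference between the first days (Irf4-/- minus wild type, called the genotype difference below) was tested directly. It was called for 5344 genes (43.9%), 3947 positive (32.4%) and 1397 negative (11.5%), and reached 2-fold for 313 (2.57%), 211 positive (1.73%) and 102 negative (0.837%). Its median over all genes was 0.13, and centring every array on its median moved that to -0.041 and the split to 1968 positive and 2657 negative. Small genotype differences thus depend on the scaling, and the values below are those before centring unless stated. Without the doubted array 3467 were positive and 1223 negative.

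**Figure D3:**
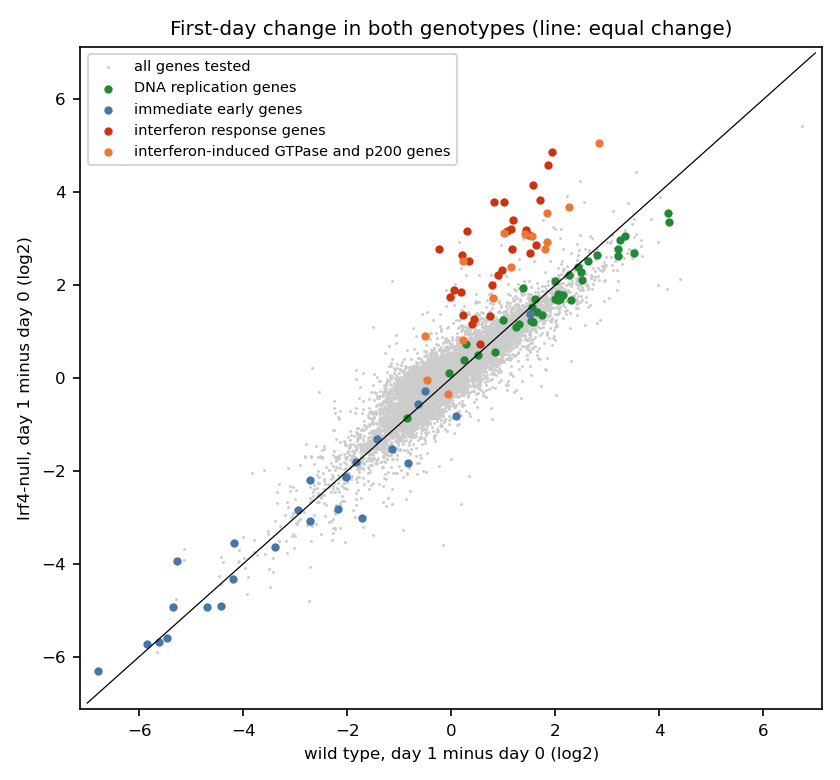
First-day difference (day 1 minus day 0, log2) of each of the 12183 genes in the wild type (x axis) and in Irf4-/- cells (y axis), with 4 gene lists in colour and a line of equal change. Nearly all genes of both interferon lists lie above the line, while immediate early genes scatter around it and most DNA replication genes lie on or somewhat below it.

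In the immediate early list 24 of 25 genes fell and 1 rose, 21 of the falls at least 2-fold, and the median first-day difference was -3.01 against 0.062 for all genes. The unstimulated cells held the high levels. Egr1, a zinc finger factor, read 13.64, 13.32 and 13.81 at day 0 and 9.73, 9.97 and 10.14 at day 1. Gadd45b was the gene that rose, by 1.37 (SE 0.10, adjusted p 9.1e-12). The wild type gave 23 falls and 1 rise with a median of -2.71. Nr4a3 fell by 3.01 in Irf4-/- cells, from 11.88, 11.26 and 10.57 to 8.09, 8.16 and 8.43, and by 1.71 in the wild type (genotype difference -1.30, SE 0.28, adjusted p 0.00087). For Atf3, a stress-induced factor, the order was the other way: it fell by 3.93 in Irf4-/- cells and by 5.28 in the wild type (genotype difference 1.35, SE 0.29, adjusted p 0.00085), and the day 1 levels of 9.33, 9.44 and 8.78 lay above the wild type's 7.52, 7.41 and 7.46.

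The agents in the culture had their own target lists. Of 23 measured NF-kB and CD40 response genes 14 rose and 7 fell (13 and 6 without the doubted array), with a median of 0.375. Over all genes 39.8% rose and 30.1% fell, so the share that fell was that of all genes. Besides Ccl22 and Fas, Bcl2l1, a survival gene, rose from 8.33, 8.50 and 8.13 to 10.82, 10.84 and 11.28, a difference of 2.66 (SE 0.14, adjusted p 1.6e-14). Traf1, an adaptor of the CD40 complex, rose by 2.43 and Ebi3, a cytokine subunit gene, by 2.10. Rel, a subunit of NF-kB, fell by 1.92 and Tnfaip3, which limits NF-kB signalling, by 1.17. Bcl2l1 and Ebi3 rose less than in the wild type, with genotype differences of -0.86 (SE 0.20, adjusted p 0.0016) and -0.83 (SE 0.15, adjusted p 0.0002). Cd40 itself rose more, from 11.37, 10.85 and 11.44 to 12.87, 12.83 and 12.84, with a first-day difference of 1.62 against 0.74 in the wild type (genotype difference 0.88, SE 0.15, adjusted p 1e-04).

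Of 14 measured IL-4 and STAT6 response genes 7 rose and 4 fell, with a median of 0.381. Over all genes 39.8% rose and 30.1% fell, so these shares were not far from those of all genes. Which agent of the mixture acted on the members cannot be told apart. Socs1 led the rises, followed by Cish (3.18), Nfil3 (2.92) and Socs2 (2.14), while the repressor gene Gfi1 fell by 2.91. Fcer2a, the low-affinity IgE receptor that IL-4 induces on B cells, rose from 11.55, 10.99 and 11.81 to 13.37, 13.03 and 13.36 (difference 1.80, SE 0.20, adjusted p 1.5e-08). Socs2, another inhibitor of cytokine signalling, rose far less than in the wild type. It went from 8.65, 8.66 and 8.31 to 10.36, 10.65 and 11.03 in Irf4-/- cells and from 7.39, 7.40 and 7.69 to 11.86, 11.86 and 11.97 in the wild type. The Irf4-/- arrays were the higher ones before stimulation and the lower ones after it, with no overlap on either day, and the genotype difference was -2.26 (SE 0.27, adjusted p 2.3e-06). Of 4 other measured probe sets of Socs2, 1 was called with a first-day fall in Irf4-/- cells. Of 20 measured cytokine receptor and Jak-STAT genes 5 rose and 13 fell (5 and 11 without the doubted array). The receptor chain genes Il5ra and Il2ra rose by 1.93 and 1.72, and Il6ra and Ifngr1 fell by 1.88 and 1.79.

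Interferon-induced genes rose together. Of 29 measured interferon response genes 29 rose, 28 of them at least 2-fold, with a median of 2.77. Of 15 interferon-induced GTPase and p200 genes 13 rose and 1 fell, with a median of 2.79. The 1 that fell, the DNA sensor gene Aim2, differed by -0.35, and by -0.24 (adjusted p 0.079) without day 0 replicate 1. The lists do not overlap in the 44 measured genes, of which 42 rose, 39 at least 2-fold, and these counts were the same without the doubted array. In the wild type 21 of the 29 and 11 of the 15 rose, with medians of 0.901 and 1.15. The genotype difference was positive for 42 of the 44 genes, and reached 2-fold for 35 of them, against 1.73% of all genes in that direction. With each array centred on its median, 42 remained positive with 33 at least 2-fold, and 1 was negative. The interferon genes were listed with earlier results of these arrays known, so these counts are a description and no independent support.

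Because these genes rose together, their promoters were read from RefSeq (assembly GRCm38.p6), which covers 250 bases before to 50 bases after the first listed start of a gene. The 7 shown were chosen among those that hold a match to the element marked in capitals, after the matches were known, and not by the size of the rise. Each stretch lies before that start and is written 5' to 3' on the strand of the gene. The capitals mark a match to the interferon-stimulated response element, searched as GAAA, any 2 bases and GAAA on both strands, so that TTTC, any 2 bases and TTTC on the printed strand is a match as well.
Ifit1, chr19:34640745-34640853, plus strand: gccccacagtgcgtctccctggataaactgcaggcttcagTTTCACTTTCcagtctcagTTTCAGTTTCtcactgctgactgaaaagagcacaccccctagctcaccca
Ifit3, chr19:34583333-34583456, plus strand: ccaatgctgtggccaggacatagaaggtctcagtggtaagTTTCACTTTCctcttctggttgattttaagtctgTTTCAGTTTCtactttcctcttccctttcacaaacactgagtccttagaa
Rsad2, chr12:26456523-26456612, minus strand: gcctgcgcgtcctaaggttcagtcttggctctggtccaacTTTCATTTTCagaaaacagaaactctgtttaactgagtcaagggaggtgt
Cxcl10, chr5:92349053-92349139, minus strand: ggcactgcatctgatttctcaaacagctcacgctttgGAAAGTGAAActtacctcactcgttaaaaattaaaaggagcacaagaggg
Gbp2, chr3:142620564-142620653, plus strand: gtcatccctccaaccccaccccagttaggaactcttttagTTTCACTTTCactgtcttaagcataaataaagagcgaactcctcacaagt
Irgm2, chr11:58214873-58214962, plus strand: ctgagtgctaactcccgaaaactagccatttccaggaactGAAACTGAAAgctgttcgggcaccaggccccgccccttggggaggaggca
Igtp, chr11:58199482-58199555, plus strand: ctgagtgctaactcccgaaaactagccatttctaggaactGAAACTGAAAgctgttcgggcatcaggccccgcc

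Ifit1 and Ifit3 each hold 2 matches, and the other 5 promoters shown hold 1. The matches nearest to the start end at position -76 in Ifit1, -113 in Ifit3, -111 in Rsad2, -204 in Cxcl10, -50 in Gbp2, -55 in Irgm2 and -25 in Igtp, counted from the start. Irgm2 and Igtp are neighbours on chromosome 11, and their printed stretches begin with the same 32 bases. Of 32 measured genes of the interferon lists with a promoter in RefSeq, 19 (59.4%) held a match, as did 295 of 9852 promoters of all genes tested (2.99%) and 943 of 27025 promoters in all (3.49%). Among genes that rose at least 2-fold 59 of 1095 (5.39%) had one, and among those that fell 21 of 705 (2.98%). Among genes whose genotype difference was positive and at least 2-fold 29 of 151 (19.2%) had one, against 2 of 81 (2.47%) of the negative ones. The gamma-activated site, searched as TTCNNNGAA, which reads the same on both strands in its fixed letters, was in 8 of the 32 promoters (25%) and in 6.93% of those of all genes tested. The composite of an ETS and an IRF site, searched as GGAA, any 2 bases and GAAA on both strands, can overlap the response element by its last letters and was in 3 of 32 (9.38%) against 2.44%. A match is a run of letters, and binding was not measured.

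The genes of these promoters had the following levels. Ifit1, an antiviral RNA-binding protein gene, read 7.47, 7.41 and 7.31 at day 0 and 12.20, 12.09 and 11.65 at day 1 in Irf4-/- cells (difference 4.59, SE 0.25, adjusted p 2.9e-14). Wild-type arrays read 7.53, 7.48 and 7.68 and then 9.56, 9.89 and 8.84. The genotypes started from one level and the 3 Irf4-/- arrays ended above all wild-type arrays, with a genotype difference of 2.72 (adjusted p 5.9e-06). Ifit3, of the same family, went from 9.45, 8.47 and 8.81 to 12.30, 12.08 and 11.86, a difference of 3.17 against 0.31 in the wild type. Rsad2, which encodes the antiviral enzyme viperin, went from 10.06, 9.38 and 9.09 to 12.38, 12 and 11.71, a difference of 2.52 against 0.34. Both overlapped between the genotypes before stimulation, and at day 1 their Irf4-/- arrays were the high ones. Cxcl10, a chemokine gene induced by interferon gamma, read 8.69, 8.94 and 8.62 and then 12.75, 12.80 and 12.18, a difference of 3.83 against 1.70 (genotype difference 2.12, SE 0.43, adjusted p 0.00056). Gbp2, a guanylate-binding GTPase gene, read 10.13, 10.22 and 9.97 and then 13.33, 13.22 and 12.92, a difference of 3.05 against 1.56. For these 2 genes the Irf4-/- arrays already lay above the wild type at day 0, at 7.66 to 8.28 for Cxcl10 and 9.12 to 9.25 for Gbp2. Irgm2 and Igtp encode immunity-related GTPases that act against pathogens inside vacuoles. Irgm2 read 8.19, 8.27 and 8.76 and then 12.10, 12.08 and 12.10 (difference 3.69 against 2.27), and Igtp 10.00, 9.97 and 10.46 and then 13.28, 13.27 and 13.18 (3.10 against 1.42). Their genotype differences were 1.42 (SE 0.17, adjusted p 1.9e-06) and 1.68 (SE 0.15, adjusted p 4.7e-08).

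Iigp1, another GTPase of that family, rose most of the 44, from 7.07, 7.13 and 6.76 to 11.91, 12.38 and 11.87 (difference 5.06, SE 0.23; 4.90 without the doubted array, which was the highest). Usp18, which removes ISG15 and damps type I interferon signalling, went from 7.98, 7.35 and 8.01 to 12.80, 12.74 and 12.42, a difference of 4.87 against 1.93 in the wild type (genotype difference 2.95, SE 0.27, adjusted p 7.8e-08). Cmpk2, a mitochondrial nucleotide kinase gene beside Rsad2, read 8.25, 8.25 and 8.36 and then 11.33, 11.10 and 10.76. Wild-type cells gave 9.27, 9.37 and 9.21 and then 9.20, 9.25 and 8.72. The gene thus started lower and ended higher without Irf4, and its genotype difference of 3.00 (SE 0.24, adjusted p 1.1e-08) was the largest of the 44. Oas3, an antiviral sensor, rose by 3.40 against 1.19, Mx1, an antiviral GTPase, by 3.79 against 0.82, and Isg20, an exonuclease, by 3.17 against 1.07. Il15, a cytokine gene that interferons induce, rose by 2.21 against 0.29 (genotype difference 1.92, SE 0.33, adjusted p 0.00014). Gbp3 rose by 0.91, and Mndal of the p200 group did not pass the test (-0.04).

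The mean level of the 44 genes was 9.45, 9.23 and 9.28 at day 0 and 12.02, 11.95 and 11.74 at day 1 in Irf4-/- cells. The wild-type means were 9.12, 9.24 and 9.26 and then 10.22, 10.27 and 9.96. The genotypes overlapped at day 0, and at day 1 the lowest Irf4-/- array lay 1.47 log2 units above the highest wild-type array. The doubted array lay between the other 2 of its group. In both genotypes replicate 3 was the lowest at day 1.

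**Figure D4:**
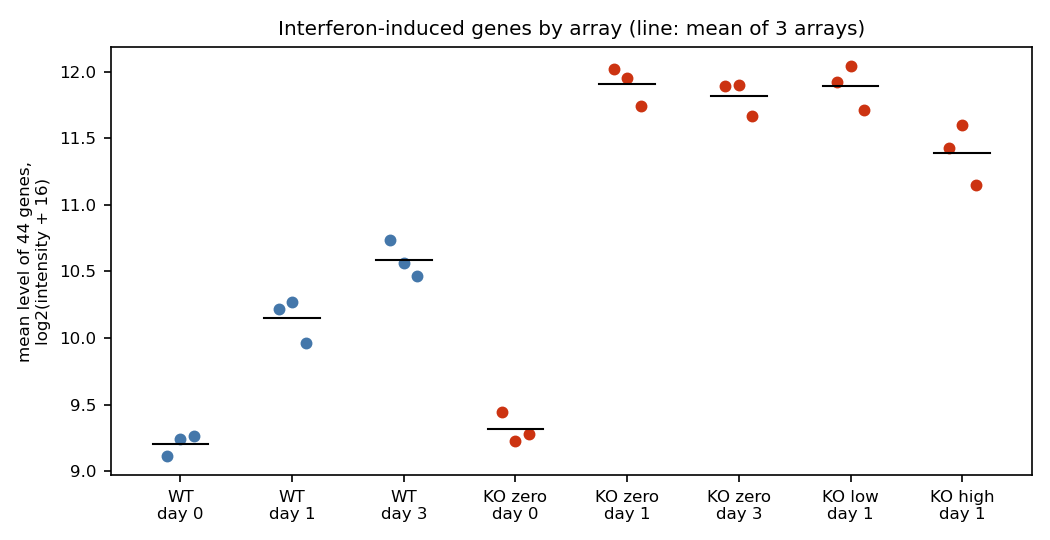
Mean level of 44 interferon-induced genes, as log2(intensity + 16), on each array (dots) of 8 groups, with group means (lines). The 3 day 1 arrays of Irf4-/- cells without DOX lie at 11.74 to 12.02, against 9.96 to 10.27 in the wild type at day 1 and 9.23 to 9.45 in the same genotype at day 0.

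Of 9 listed interferon genes only Ifng, which encodes interferon gamma, was measured above the intensity limit. It read 7.87, 8.09 and 7.97 at day 0 and 11.28, 11.84 and 11.02 at day 1, a difference of 3.40 (SE 0.33, adjusted p 1.9e-09; 3.17 without the doubted array, the highest of the 3). Wild-type cells gave 7.07, 6.94 and 7.09 and then 8.82, 8.59 and 8.99. The groups did not overlap on either day, and the genotype difference was 1.64 (SE 0.47, adjusted p 0.0079; 1.40, adjusted p 0.028, without the doubted array). Ifng is chiefly a gene of NK and T cells, whose markers are given below, and their part in this value was not tested. Of the genes that carry the signal, Stat2 rose from 8.21, 8.27 and 8.18 to 10.50, 10.36 and 10.45 (genotype difference 1.32, SE 0.12, adjusted p 4.9e-08), and Irf9 rose by 0.74 against 0.55.

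In the list of IRF family members and partner factors 4 of 15 rose and 8 fell (2 and 8 without the doubted array), with a median of -0.181. Of the rises 1 was at least 2-fold. Irf7, Batf and Maf are given here but are not counted in that list. Irf7, the factor that amplifies type I interferon, rose by 1.86, from 10.99, 10.56 and 10.59 to 12.74, 12.63 and 12.35, against 0.18 in the wild type (genotype difference 1.68, SE 0.26, adjusted p 4.3e-05). Irf1 rose from 11.51, 11.62 and 12 to 12.80 on all 3 arrays, a difference of 1.09 against 0.29 (genotype difference 0.80, SE 0.15, adjusted p 0.00034). Irf5 rose by 0.41, and Irf2, which opposes Irf1, fell by 0.66. Irf8, the closest relative of Irf4, differed by -0.18. Of the factors that bind DNA with Irf4, Batf rose by 2.05 against 2.14, Spib fell by 0.78, and Spi1 did not pass the test (-0.06). Ets1, an ETS factor, fell by 1.24. Maf had an unusual course. It fell from 12.06, 12.13 and 11.95 to 10.23, 9.84 and 9.93 in Irf4-/- cells and from 10.40, 10.31 and 10.61 to 6.59, 6.53 and 6.69 in the wild type. The Irf4-/- arrays were the high ones on both days, and the fall was smaller (-2.05 against -3.83, genotype difference 1.79, SE 0.21, adjusted p 1.9e-06).

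Growth genes rose, in several groups by less than in the wild type. Of 32 measured ribosome biogenesis genes 31 rose, 16 at least 2-fold, with a median of 0.986. Pno1, an assembly factor of the small subunit, went from 10.72, 10.58 and 10.65 to 12.94, 12.94 and 13.12 (difference 2.35, SE 0.067). Nop16 rose by 2.01 and Bysl by 1.93. The genotype difference was negative for 21 of the 32 (20 without the doubted array) and positive for none, with a median of -0.229, against 11.5% negative over all genes. With arrays centred on their medians it was negative for 30 of the 32, with a median of -0.40. It was largest for Nolc1, a nucleolar chaperone gene, which rose by 0.95 against 1.84 (genotype difference -0.89, SE 0.16, adjusted p 0.00024), and whose day 0 levels of 11.48, 11.32 and 11.08 lay above the wild type's 10.69, 10.69 and 10.76. Myc, which drives this program, was lower at day 1 than at day 0. It read 13.06, 13.12 and 13.25 and then 11.22, 11.43 and 11.53 in Irf4-/- cells, and 13.23, 13.26 and 13.21 and then 12.12, 12.11 and 12.06 in the wild type. The day 0 ranges overlapped, the day 1 ranges did not, and the genotype difference was -0.62 (SE 0.11, adjusted p 0.00016). In the Myc network 4 of 10 rose and 6 fell. Mnt and Mxd4, which oppose Myc, fell by 2.73 and 1.85, and their partner Max rose by 0.54.

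Metabolic genes followed by pathway. Of 16 nucleotide synthesis genes 15 rose, with a median of 1.51, led by Rrm2 (2.97), Dctpp1 (2.13) and Rrm1 (2.03). The genotype difference was negative for 11 of them and positive for none, beside 11.5% negative over all genes. The mean level of the list was 9.83, 9.93 and 9.76 at day 0 and 11.34, 11.36 and 11.29 at day 1. In the wild type it was 9.66, 9.72 and 9.78 and then 11.48, 11.49 and 11.46, so the day 0 ranges overlapped. Of 20 cholesterol synthesis genes 19 rose, with a median of 1.42. Idi1 read 9.10, 9.24 and 9.21 and then 13.02, 12.87 and 12.94, and Fdps (3.59), Sqle (3.05) and Fdft1 (2.89) followed. Of 25 genes of amino acid supply and one-carbon metabolism 15 rose and 7 fell (15 and 6 without the doubted array). Mthfd2, a mitochondrial folate enzyme, went from 8.92, 8.97 and 8.43 to 11.91, 11.84 and 11.84, and its difference of 3.09 was the same in the wild type. Asns rose by 2.76 and Shmt1 by 2.62 (3.66 in the wild type, genotype difference -1.04, SE 0.20, adjusted p 0.00028). The stress factor genes Ddit3 and Atf4, which drive several of these genes, fell by 2.97 and 0.71. Of 15 glycolysis genes 10 rose and 2 fell. Tpi1 rose by 1.73 and Pgk1 by 1.21, while the glucose transporter genes Slc2a3 and Slc2a1 fell by 1.18 and 1.06.

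Hk2 and Slc16a1 stood apart in the glycolysis list. Hk2, the inducible hexokinase, read 12.22, 12.05 and 10.32 at day 0 and 11.15, 11.23 and 11.10 at day 1 in Irf4-/- cells. In the wild type it read 9.09, 9.19 and 9.40 and then 11.33, 11.20 and 11.18. The unstimulated Irf4-/- arrays were all above the unstimulated wild type, and the stimulated arrays of the genotypes were close together. The first-day difference of -0.37 did not pass the test (adjusted p 0.25) but was -0.98 (adjusted p 6.3e-06) without day 0 replicate 3 and -0.68 (adjusted p 0.0074) with array weights, and the genotype difference was -2.38 (SE 0.41, adjusted p 0.00011; -2.98 without that array). Slc16a1, a lactate transporter, rose from 10.06, 10.07 and 10.29 to 11.27, 11.37 and 11.53, and in the wild type from 9.15, 9.11 and 9.36 to 12.05, 12.14 and 12.01. It too began higher and ended lower without Irf4 (genotype difference -1.61, SE 0.15, adjusted p 1e-07).

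Chaperone genes rose in smaller steps. Of 17 genes of the chaperonin and cytosolic chaperones 13 rose, none of them 2-fold, and 3 fell, with a median of 0.58. The mitochondrial chaperonin gene Hspd1 rose by 0.92 against 1.51 in the wild type (genotype difference -0.59, SE 0.13, adjusted p 0.0014). The genotype difference was negative for 15 of the 17 (14 without the doubted array, 6 when only the 4 groups compared were used) and positive for none. Over all genes 11.5% were negative. The mean level of the list was 12.66, 12.925 and 12.326 at day 0 and 12.554, 12.573 and 12.533 at day 1. In the wild type it was 12.299, 12.346 and 12.196 and then 12.8, 12.766 and 12.545, so both days held overlapping ranges. Of 18 chaperone genes of the endoplasmic reticulum 12 rose and 4 fell. Sdf2l1 rose by 1.99, Dnajb9, a target of the unfolded protein response, fell by 2.89, and Hspa5 did not pass the test (0.02) but did with its probe sets averaged (0.15, adjusted p 0.023).

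Most cell cycle genes rose. Of 23 G1 and S phase control genes 15 rose and 5 fell, with a median of 0.461. Ccnd2, the D-type cyclin of B cells, went from 10.76, 10.86 and 10.66 to 13.42, 13.48 and 13.59, and its difference of 2.74 stood beside 2.75 in the wild type. The inhibitor gene Cdkn1b fell from 12.05, 12.17 and 12.02 to 10.47, 10.49 and 10.26, by 1.67 against 1.74. Cdk6, a kinase that D-type cyclins bind, differed in its response: it rose from 10.81, 10.77 and 10.86 to 10.97, 11.07 and 11.15, by 0.25 (SE 0.076, adjusted p 0.0047), and in the wild type from 10.70, 10.66 and 10.53 to 11.79, 11.77 and 11.79, by 1.15. Its genotype difference was -0.90 (SE 0.11, adjusted p 2.3e-06). Ccne2, an S phase cyclin gene, rose by 2.93 against 3.97 (genotype difference -1.04, SE 0.26, adjusted p 0.0031).

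Of 37 DNA replication genes 35 rose, 31 at least 2-fold, and 1, the licensing factor gene Cdt1, fell by 0.87. The median of 1.70 stood beside 2.06 in the wild type. The mean level of the list at day 1 was 11.45, 11.41 and 11.41, close to 11.45, 11.48 and 11.47 in the wild type. At day 0 it was 9.66, 9.78 and 9.58 against 9.43, 9.48 and 9.62, with overlapping ranges. Exo1, a repair and replication nuclease gene, rose most, from 6.65, 6.73 and 6.55 to 10.24, 10.17 and 10.16 (difference 3.55, SE 0.09, adjusted p 3.3e-20), followed by Cdc6 (3.35) and Gins2 (3.05). The genotype difference was negative for 17 of the 37 (16 without the doubted array) and positive for 3, beside 11.5% and 32.4% over all genes. With arrays centred on their medians it was negative for 25 and positive for 1. Of 40 mitosis genes 39 rose, 36 at least 2-fold, and Cenpa, which marks centromeres, fell by 0.60, with a median of 1.87. Cdk1 (2.75), Ncapg (2.66) and Bub1 (2.59) followed Melk in size. Day 0 replicate 2 was the high array of its group for Cdk1, with 9.39, 10.15 and 9.21 before and 12.44, 12.37 and 12.18 after stimulation.

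**Figure D5:**
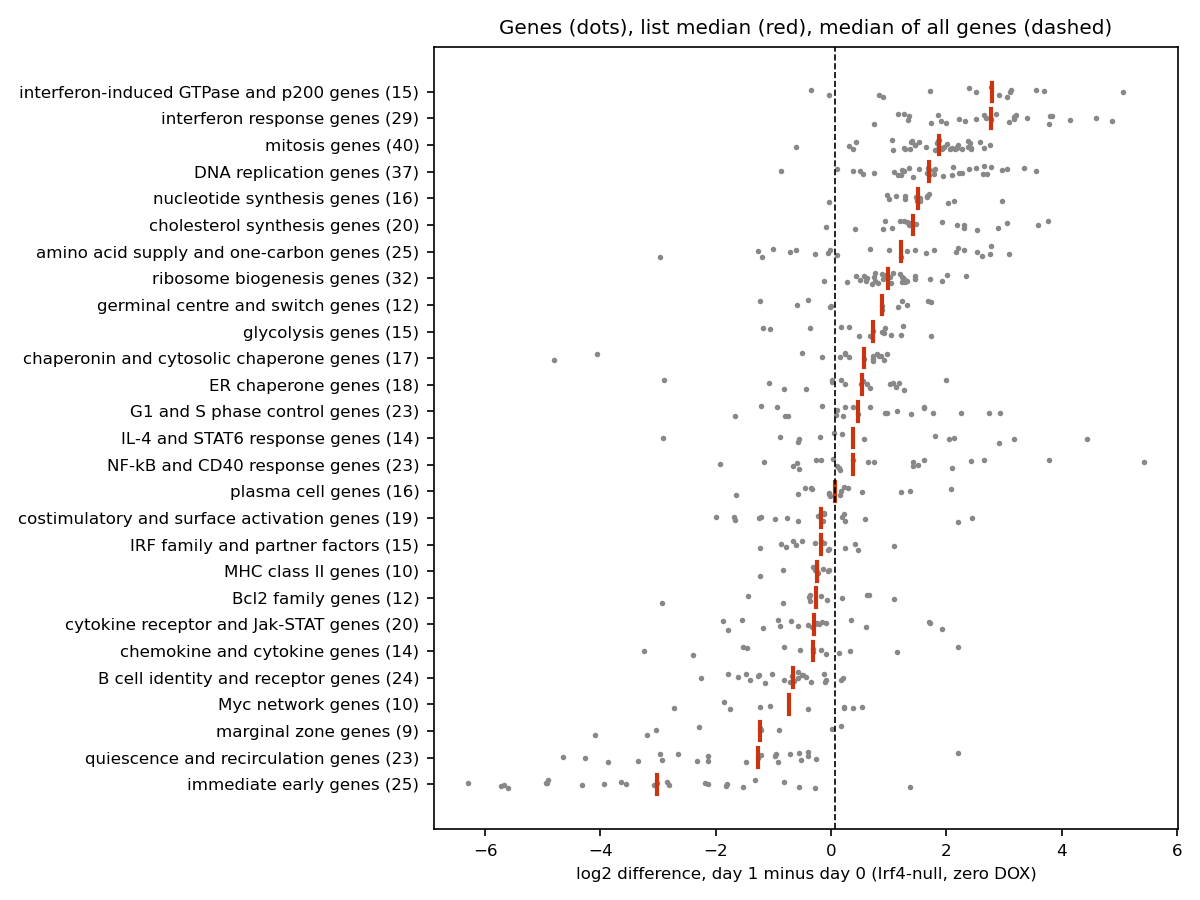
First-day difference (log2) of each measured gene (dots) in Irf4-/- cells, by gene list, with the number of genes in brackets. The list of genes encoding interferons and the cell marker lists are not drawn. The list median is the red bar, and the median of all 12183 genes, at 0.062, is the dashed line. The interferon lists lie highest at 2.79 and 2.77, and the immediate early list lowest at -3.01.

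Most messages of the resting state fell. Of 23 quiescence and recirculation genes 22 fell, 13 at least 2-fold, with a median of -1.27. Cxcr4, a homing receptor for the marrow, went from 13.33, 13.20 and 12.96 to 8.80, 8.61 and 8.14. Tsc22d3 fell by 4.27, Ccr7, which guides cells to T zones, by 3.35 (13.11, 12.98 and 13.28 before, 9.87, 9.93 and 9.53 after), and S1pr1, the egress receptor, by 2.97. Their regulators Klf2 and Foxo1 fell by 2.32 and 2.13. Of 3 other measured probe sets of Foxo1, 1 was called with a rise. Slfn2, a quiescence gene that interferons also induce, was the 1 member that rose, from 10.42, 10.34 and 10.88 to 12.76, 12.69 and 12.81. Its difference of 2.21 exceeded the wild type's 0.76 (genotype difference 1.44, SE 0.13, adjusted p 4.7e-08).

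Genes of B cell identity and receptor signalling fell more than they rose. Of 24 such genes 19 fell and 1 rose (19 and 2 without the doubted array), with a median of -0.661. The kinase genes Blk and Syk fell by 2.26 and 1.78, the factor gene Ebf1 by 1.47 and the receptor subunit gene Cd79a by 1.02. Pax5, which maintains the lineage, did not pass the test (0.20) but did without the doubted array (0.28, adjusted p 0.03) and without day 0 replicate 2 (0.32, adjusted p 0.0086). The 1 other measured probe set of Pax5 was called with a fall, so the direction for this gene depends on the probe set. Not called either was Ms4a1, which encodes CD20 and read 13.95, 14.00 and 13.97 and then 13.85, 13.83 and 13.90 (-0.11, adjusted p 0.055, and 0.017 with the replicate number as a block). Of 9 marginal zone genes 7 fell, among them the complement receptor gene Cr2 (-3.19) and the Notch target Hes1 (-4.09). S1pr3, a receptor that holds cells in the marginal zone, fell from 12.59, 12.11 and 11.97 to 11.31, 10.99 and 11.63 and was higher in all unstimulated Irf4-/- arrays than in the wild type (11.25, 11.12 and 10.88), where it rose by 0.51 (genotype difference -1.42, SE 0.23, adjusted p 6.2e-05). Of 10 MHC class II genes 8 fell, with a median of -0.248. H2-Aa, an abundant chain, went from 14.48, 14.39 and 14.50 to 14.20, 14.19 and 14.26, H2-Ob fell by 1.24, and the regulator gene Ciita did not pass the test (-0.04).

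Of 19 genes of costimulation and surface activation 4 rose and 10 fell. Cd70 and Tnfsf9, ligands for T cell receptors, rose by 2.21 and 2.45, the second by less than in the wild type (3.29, genotype difference -0.84, SE 0.17, adjusted p 0.00063). Cd274, which encodes the inhibitory ligand PD-L1, fell by 2.00 and the activation marker gene Cd69 by 1.25. Of 14 chemokine and cytokine genes 2 rose and 6 fell (2 and 7 without the doubted array). Il10 fell from 10.79, 10.34 and 10.25 to 8.17, 8.12 and 7.89, and all 3 unstimulated arrays lay above the wild type's 8.34, 8.31 and 8.58 (genotype difference -1.27, SE 0.26, adjusted p 0.00056). Ccl3 fell by 3.24 against 2.14. Of 12 Bcl2 family genes 3 rose and 7 fell (3 and 6 without the doubted array). Among the killer genes Bak1 rose by 1.10, and Pmaip1 and Bcl2l11 fell by 2.94 and 1.44. The survival gene Bcl2l1, given above with the NF-kB and CD40 response genes, is not counted in this list.

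The germinal centre and switch list held 7 genes that rose and 3 that fell of 12 (7 and 2 without the doubted array), with a median of 0.887. Ung, the uracil glycosylase of class switching, rose by 1.17 against 2.02 in the wild type (genotype difference -0.85, SE 0.15, adjusted p 0.00011), Apex1 rose by 1.69, and Bcl6 did not pass the test (-0.19). In the plasma cell list 5 of 16 rose and 4 fell, with a median of 0.074 that lay at the level of all genes, while in the wild type 2 rose and 9 fell, with a median of -0.621. The genotype difference was positive for 9 of the 16 (8 without the doubted array) and negative for none, beside 32.4% positive over all genes, and with arrays centred on their medians for 6 and 2. The day 0 levels differed for the genes that led these values. Jchain, whose product joins IgM and IgA into polymers, read 6.18, 6.06 and 6.25 and then 6.17, 6.78 and 6.19 in Irf4-/- cells, and 13.12, 12.93 and 13.59 and then 10.28, 9.78 and 11.56 in the wild type. Igha, the IgA heavy chain, read 8.69, 8.86 and 8.90 and then 8.85, 8.77 and 8.81, against 10.82, 10.69 and 10.60 and then 8.79, 8.93 and 8.91. Neither passed the test in Irf4-/- cells, and both fell in the wild type, by 2.67 and 1.83. Eaf2, a gene of late B cells, rose from 6.92, 7.04 and 7.20 to 8.35, 8.58 and 8.32 (genotype difference 1.12, SE 0.26, adjusted p 0.0017), and Xbp1, a plasma cell factor gene, rose by 0.57. Ighg3, the IgG3 heavy chain, rose from 7.88, 8.24 and 7.61 to 10.05, 10.14 and 9.82 and fell in the wild type from 10.06, 10.01 and 11.51 to 9.32, 9.11 and 9.78. The day 1 arrays of Irf4-/- cells were above those of the wild type, and the genotype difference of 3.22 (SE 0.37, adjusted p 1.6e-06) was the largest positive one among the genes the naming rule allowed.

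Several of the largest negative genotype differences belonged to genes that were higher at day 0 in Irf4-/- cells than in the wild type. Slc12a5, a neuronal chloride transporter gene, read 10.84, 10.57 and 8.61 at day 0 and 6.53, 6.39 and 6.32 at day 1 in Irf4-/- cells, and 6.28 to 6.58 on all 6 wild-type arrays. Stimulated cells of both genotypes were at the same low level, and the genotype difference was -3.43 (SE 0.43, adjusted p 4.5e-06; -4.12 without day 0 replicate 3, the lowest of its group). Nebl, which encodes an actin-binding protein, went from 10.76, 10.13 and 10.14 to 7.72, 7.73 and 7.45, while the wild type stayed between 9.39 and 9.88 (genotype difference -2.91, SE 0.26, adjusted p 5.6e-08). Its Irf4-/- arrays were thus the high ones at day 0 and the low ones at day 1. Mdm1 went from 10.13, 10.87 and 10.06 to 8.40, 8.20 and 8.14, against 7.75 to 7.85 and then 8.10 to 8.24 in the wild type (genotype difference -2.45, SE 0.22, adjusted p 4.7e-08). Il1r2, the decoy receptor for IL-1, fell by 3.37 against 1.51, from 11.07, 10.82 and 9.54 to 7.11, 7.02 and 7.18.

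Markers of other cells also moved. In these bulk samples fewer cells of a type and less RNA per cell cannot be told apart. Of 7 measured T cell markers (12 listed) 6 fell and none rose, and their summed intensity went from 7065 to 8761 at day 0 to 2661 to 2874 at day 1, against 7668 to 7901 and 1814 to 1950 in the wild type. Of 8 measured NK cell markers (10 listed) 5 fell and 2 rose, and the sum went from 4273 to 5407 to 3359 to 4250. At both days it was above the wild type's 1741 to 2209 and 1325 to 1790, as Ifng was. Of 11 measured myeloid markers (12 listed) 7 fell and 2 rose, with a median of -0.915 (-0.55 without day 0 replicate 2), and sums of 8125 to 18870 and then 9903 to 11611, against 4690 to 4895 and 3506 to 3651 in the wild type. Klrd1 of NK cells fell by 2.86, Cd2 and Cd3g of T cells by 2.69 and 1.90, and Lyz2 of myeloid cells by 1.31. Ccl5, a chemokine gene of T and NK cells, read 10.33, 10.93 and 10.54 and then 10.43, 10.84 and 9.63, which did not pass the test, and fell by 2.54 in the wild type. Of 5 dendritic cell markers 1 rose and 3 fell, and of 6 platelet markers 1 rose and 3 fell. Of 6 neutrophil markers 1 fell, and neither of 2 erythroid markers passed the test. The neutrophil sum went from 2685 to 3807 to 2113 to 2954, and the erythroid sum stayed at or below 484 on all 6 arrays. The part of these cells in the interferon values was not tested.

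The day 1 arrays were also set against day 3 without DOX and against day 1 with 100 ng/mL DOX; both comparisons share the day 1 arrays with those above, so their values are given side by side only. Between day 1 and day 3 6413 genes (52.6%) were called, 3157 higher (25.9%) and 3256 lower (26.7%). In that step 31 of the 32 ribosome biogenesis genes fell, and of the 29 interferon response genes 3 rose and 10 fell (median -0.302). Ifit1 fell to 10.91, 10.96 and 10.41, and Maf rose to 11.07, 11.29 and 10.92. The mean of the 44 interferon-induced genes at day 3 was 11.89, 11.90 and 11.67. With 100 ng/mL DOX at day 1 335 genes (2.75%) were called against zero DOX, 153 higher (1.26%) and 182 lower (1.49%). That count was 202 without the doubted array, 109 without day 1 replicate 1, and 3 when only the 6 arrays compared were used. Of the 44 interferon-induced genes 18 were lower with DOX and none was higher, with a median of -0.49. That number was 30 with the replicate number as a block, 10 without the doubted array, 9 with arrays centred on their medians and 0 when only the 6 arrays compared were used. Their mean on the DOX arrays was 11.42, 11.60 and 11.15, below all 3 arrays without DOX. Socs2 read 12.14, 11.78 and 12.34 with DOX, above the 3 arrays without it and around the wild-type levels at day 1. Maf read 8.39, 8.73 and 8.43, between the arrays without DOX and those of the wild type. Ifng read 9.68, 10.07 and 9.23 and Socs1 11.04, 11.40 and 11.25, both below all 3 arrays without DOX.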

How the data were processed

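The authors deposited 1 linear intensity per probe set and array, normalised with the D-Chip algorithm (PM-only model) per the series text; MAS5 is also named in the submitters' processing notes, with no stated role. RNA had been extracted with Trizol, and 250 ng labelled. From the 30 arrays, probe sets with 1 gene symbol and an intensity above 188.2, the median of the table, on at least 3 arrays were kept (21668 probe sets), and the set with the highest mean stood for each of 12183 genes. Levels are log2(intensity + 16). The fit used limma 3.58.1 in R 4.3.3 on all 10 groups, with 20 residual degrees of freedom, Benjamini-Hochberg adjustment over 12183 genes and a threshold of 0.05. It was checked on simulated data. With arrays the number of replicates, 3 per group, limits the precision. Members and gene lists were chosen with earlier results of these data known.

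Named are the 12 largest changes each way (Rik, Gm, LOC, BC, AI and immunoglobulin variable names passed over), up to 4 called members of each list each way, any member of lists of at most 12 genes, and a panel of 30 regulators. Chosen after their values were seen were Atf3, Atf4, Ccl5, Cd40, Cdk6, Ebi3, Egr1, Fcer2a, Gbp2, Gbp3, Hspa5, Igha, Igtp, Irf9, Isg20, Mndal, Nolc1, Nr4a3, Oas3, Rsad2, S1pr1 and Stat2. Same-numbered day 0 and day 1 arrays of Irf4-/- cells deviated together (r = 0.442, 0.471 and 0.528), so the numbers pair them. In the wild type r was only 0.027, 0.165 and 0.196. The SE and adjusted p values above come from the fit without this pairing unless a block is named. With the replicate number as a block the genotype difference was called for 6298 genes, against 5344 without it. Alternatives tried were other pseudocounts, filters, scalings, probe set rules, array weights, a sex term, the replicate block and leaving out each array.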

Additional observations from a re-analysis of the deposited data

Results flagged for a closer look

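The first day differed between Irf4-/- and wild-type cells for 5344 genes by a test of the difference itself in limma, and the named ones follow as log2 values, Irf4-/- minus wild type. The positive side held Ighg3 (3.22), Cmpk2 (3.00), Mx1 (2.96), Usp18 (2.95), Jchain (2.89), Ifit3 (2.85), Oasl2 (2.78), Ifit1bl1 (2.78), Ifit1 (2.72), Nid1 (2.60), Parp12 (2.58) and Oasl1 (2.44). Of these 12 genes 8 are members of the interferon response list, and Jchain and Ighg3 are immunoglobulin-related genes with high wild-type levels at day 0. The first-day rise of Nid1, a basement membrane gene, was 1.10 in Irf4-/- cells but 0.68 without day 0 replicate 1.

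The negative side held Slc12a5 (-3.43), Nebl (-2.91), Mdm1 (-2.45), Hk2 (-2.38), Cd5l (-2.36), Socs2 (-2.26), Dhrs3 (-2.23), Hspa1a (-2.06), Havcr1 (-1.93), Mreg (-1.89), Il1r2 (-1.86) and Hes5 (-1.79). Day 0 replicate 3 was the low array of its group for Slc12a5, Hk2, Mreg, Il1r2 and Cd5l. The value of Cd5l lost its call without any of 5 arrays, with -1.55 without day 0 replicate 2, -1.84 without day 0 replicate 1 and -2.08 without day 1 replicate 3 of Irf4-/- cells, -2.32 without wild-type day 0 replicate 2 and -2.33 without wild-type day 1 replicate 2, and was -3.69 without day 0 replicate 3. Dhrs3 lost its call without day 0 replicate 1 (-1.64) or the doubted array (-2.03) and was -2.86 without day 0 replicate 3. Hspa1a was -1.38 without day 0 replicate 2 and -2.76 without day 0 replicate 3. The separate first-day fall of Hes5 was -0.09 without day 0 replicate 1.

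Among the regulators listed for this study the difference was 1.79 for Maf, 1.68 for Irf7, 1.24 for Fas, 0.89 for Socs1, 0.52 for Spi1, -0.52 for Pax5, -0.62 for Myc and -0.86 for Bcl2l1. It was 0.86 for Irf4 and 0.62 for Cd69, which lost their calls when probe sets were averaged and when arrays were centred, respectively. Ccl22 differed by -1.31 (-0.74, adjusted p 0.085, without day 0 replicate 2), Foxo1 by -0.35 (-0.29, adjusted p 0.063, without day 1 replicate 1, and -0.17, adjusted p 0.15, with probe sets averaged) and Bcl6 by 0.89 (0.68, adjusted p 0.057, without day 1 replicate 3). Bcl2 differed by 0.48 (0.37, adjusted p 0.072, without day 0 replicate 2, and 0.40, adjusted p 0.058, without day 1 replicate 3), by 0.31 (adjusted p 0.12) with arrays centred and by 0.28 (adjusted p 0.21) with probe sets averaged. Spib differed by 0.32, but by 0.15 (adjusted p 0.40) with arrays centred, with 0.29 to 0.31 and adjusted p 0.065 to 0.074 without replicate 1 of day 0 or replicate 1 or 2 of day 1 in Irf4-/- cells, or without replicate 1 or 2 of either day in the wild type. Several of these differences came with unlike day 0 levels. The means, Irf4-/- before wild type, were 6.58 and 7.64 at day 0 and 10.36 and 10.19 at day 1 for Fas. They were 8.59 and 6.99, then 14.02 and 13.74, for Ccl22, and 10.41 and 11.50, then 10.22 and 10.42, for Bcl6. Pax5 read 10.10 and 9.65, then 10.30 and 10.37. The day 0 means of Socs1 (7.36 and 7.42) and Myc (13.15 and 13.23) were close.

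The probe set of Irf4 that follows DOX stood for the gene in no comparison, apart from the alternative that averages probe sets, and read 10.77 on the doubted array, against 7.80 and 7.84 on the other 2 arrays of its group.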

How the results depend on the processing

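The numbers of genes with a first-day change kept to within 1.5 times their size in every alternative run, with 8092 to 8368 called and 2196 to 2276 at least 2-fold when 1 array was left out. Of the 36 first-day list medians 23 moved in some setting by more than 1 SD of the list mean among replicate arrays. With 1 array left out the median was 2.65 to 2.81 for interferon response genes and -1.31 to -0.55 for myeloid markers. Of 163 genes named, 151 were called in the first-day comparison and 146 of these in every alternative, and 101 were called in the genotype difference and 72 of these in every alternative. For the difference between genotypes, leaving out 1 array gave 4658 to 5807 called genes, 288 to 409 at least 2-fold, 3374 to 4147 positive and 1221 to 1660 negative. Centring each array on its median turned the split to 1968 positive and 2657 negative. For 100 ng/mL against zero DOX at day 1 the 335 called genes were 687 with array weights, 673 with the replicate block, 566 with a sex term, 190 with median centring, 3 with only the 2 groups compared and 208 without both day 1 arrays whose Irf4 signal goes against their labels, a setting chosen after seeing the data; leaving out 1 array gave 109 to 236. The first-day difference of Irf4 turned to 0.11 when its probe sets were averaged, because the set that follows DOX then enters the mean. The cause of the other shifts was not tested. With the replicate block 8876 genes were called on the first day, and the block changed the first-day call of 1 of the 163 genes named, Ms4a1, and the genotype call of 9. The level of probe sets close to background limits what can be said of genes that were not tested.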

Other observations

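The mean level of the 44 interferon-induced genes on the 3 day 1 arrays labelled low DOX was 11.92, 12.04 and 11.72, against 11.74 to 12.02 at zero DOX and 11.15 to 11.60 at 100 ng/mL. Array 2 of the low DOX group, whose Irf4 signal goes against its label, had the highest of these means. The wild-type mean was 9.96 to 10.27 at day 1 and 10.74, 10.56 and 10.47 at day 3, below every Irf4-/- array of day 1 or day 3 without DOX.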
